A study of Mus musculus with 20 samples.

Results

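The windows described here are promoter windows of the mouse genome that stood at 25% methylation or more in each of 3 blastocysts from the Padi6-mutant group (mutant replicates 11, 12 and 14), on any of the 19 autosomes. Of the 54034 windows in the data, 51443 were autosomal and 28744 of these had a value in all 3 embryos (the eligible windows). The threshold was met by 406 windows (the member windows), 1.41% of the eligible ones. Each window is 3500 bp long and is named by its position on build GRCm39, since the deposited table pairs no window with a gene. The members were chosen by their levels in these 3 embryos, so those levels describe the choice, and the results below rest on the other 17 embryos.

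Methylation was measured by bisulfite sequencing of single blastocysts, the stage at which the mouse embryo has formed an inner cell mass and a trophectoderm. The labels give 10 control embryos (genotype Control, replicates 1 to 10) and 10 embryos of the genotype Padi6-mutant (replicates 11 to 20), where the series' design text names the P620A mutation of Padi6 carried by the oocyte. Strain, sex, mother, litter and day of collection are not in the labels, nor is the allele state of the controls. The mutant embryos are those that got past an early cleavage block, per the design text, so embryos that stopped earlier are not represented.

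PADI6 is an egg protein of the peptidylarginine deiminase family and part of the subcortical maternal complex. Before implantation most methylation inherited from sperm and egg is lost as DNA is copied, and what remains is copied to the new strand by DNMT1, which UHRF1 guides to freshly replicated DNA. Sequences known to hold methylation through this period include imprinting control regions and some retrotransposons. Promoters rich in CpG are mostly unmethylated at this stage, while CpG-poor promoters can carry some methylation.

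Coverage differed widely between embryos, and read depth is unknown. Of the 10 control embryos, 6 had a value in over 30000 windows (densely covered: replicates 1 to 5 and 10) and 4 in 4984 to 17002 (sparsely covered: replicates 6 to 9). The mutant embryos used to choose the windows are the densely covered ones of their group, with 38549 to 43812 windows. The other 7 mutant embryos had 2875 to 13847, so all of them are sparsely covered. Their means over the member windows are set below beside the sparsely covered controls as well as all controls. Tests of single windows used all controls with a value, apart from a limma refit with only the sparsely covered ones. Every embryo was counted as 1 replicate.

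In the 3 embryos that define them, the member windows averaged 43.9%, 38.2% and 44.4% (mutant replicates 11, 12 and 14), where all eligible windows averaged 10.5%, 6.75% and 16.1%. The lowest of the 3 values of a window was exactly 25% in 188 of the 406 windows and 50% or more in 29, and no window was at 100% in all 3. The 3 embryos often differed at the same window, with a median range of 23.8 points. Each embryo passed the threshold at a different rate: 16.9% of eligible windows in replicate 11, 9.31% in replicate 12 and 27.8% in replicate 14. Of the 733 windows at 25% or more in both replicates 11 and 12, 55.4% were so in replicate 14. Of the 2185 windows at that level in both replicates 11 and 14, 18.6% were so in replicate 12. These figures describe the choice and are given without a test.

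Outside the embryos that chose them, the member windows were more methylated than the average eligible window in all 10 control embryos, and on average by less in the 7 other mutant embryos. Control embryos averaged 34.3% ± 7.24 (SD, n = 10) over the member windows and 13.9% ± 2.40 (SD, n = 10) over the eligible windows. The 7 mutant embryos averaged 23.2% ± 9.88 (SD, n = 7) over the member windows and 12.4% ± 1.5 (SD, n = 7) over the eligible windows. The mutants thus differed from the controls by -11.1 points at the member windows. The excess of member over eligible windows was 20.3 points ± 5.69 (SD, n = 10) in controls and 10.8 points ± 8.69 (SD, n = 7) in these mutants. No p is given for a mean over windows chosen in this way.

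The mutant embryos were spread widely. Replicate 16 stood at 11.3% over 72 member windows, the same as its level over all eligible windows (11.3%). Replicates 17 and 20 were next, at 14.6% (24 windows) and 18.1% (69 windows), against 11.2% and 12.6% over eligible windows. Replicates 13, 15 and 19 stood at 22.7%, 26.5% and 28.8%, about as far above their eligible windows as each other (11.6, 14.4 and 14.5 points). Replicate 18 was the highest at 40.6%, read in 40 windows, of which 30% were at exactly 100%. Thus 3 of the 7 mutant embryos (13, 16 and 20, each read in over 50 windows) and replicate 17 lay below the lowest control embryo, and the remaining 3 lay within the control range.

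Control embryos ran from 25.9% (replicate 10) through a median of 31.3% to 49.3% (replicate 7). The 6 densely covered controls lay close together at 30.8% ± 3.46 (SD, n = 6). The 4 sparsely covered controls stood at 39.4% ± 8.83 (SD, n = 4), 16.2 points above the 7 mutant embryos, which are somewhat sparser still (24 to 123 member windows read, against 49 to 159). Of these 4, replicates 6, 8, 9 and 7 read 29.6%, 35.0%, 43.8% and 49.3%, so replicate 18 of the mutants is inside their range and the other 6 mutants are below all 4.

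**Figure D1:**
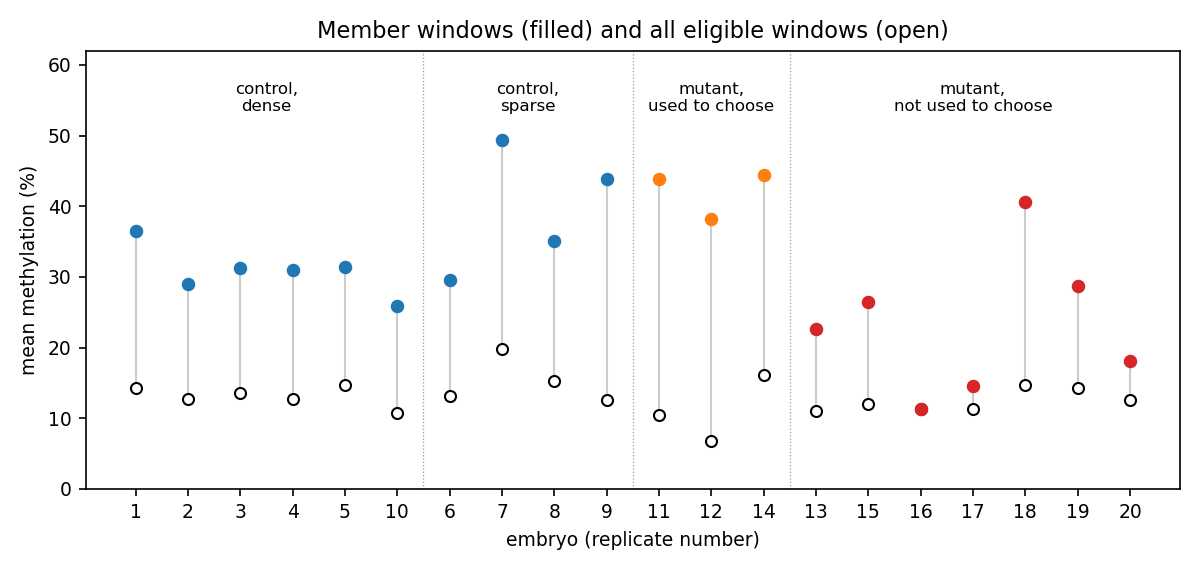
Mean methylation in percent (vertical axis) of each embryo (horizontal axis, replicate number), over the member windows (filled) and over all eligible windows it has a value for (open), with grey lines joining both. In the mutant embryos not used to choose, the member mean runs from 11.3% (replicate 16) to 40.6% (replicate 18), and in controls from 25.9% to 49.3%.

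A sparse embryo reads only part of the member windows, so each embryo was also set against the densely covered controls on exactly the windows it read. On those windows the dense controls averaged 30.2% to 32.4% for the 7 mutant embryos and 31.0% to 33.3% for the 4 sparse controls, so the part of the list an embryo happened to read did not differ much. Mutant embryos lay -8.17 points ± 9.98 (SD, n = 7) from that reference, between -19.3 (replicate 16) and 10.3 (replicate 18). Sparse controls lay 7.08 points ± 8.48 (SD, n = 4) from it. The embryos that chose the windows lay 11.6 points above it, which the choice itself produces.

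The lower mean of the mutant embryos at the member windows came with more windows at exactly 0%. In controls, 27.0% ± 10.4 (SD, n = 10) of the member windows read were at 0%, and in the 7 mutant embryos 57.8% ± 15.7 (SD, n = 7). The sparsely covered controls had 36.4% ± 9.77 (SD, n = 4). Sparse coverage goes with more values of 0%: over eligible windows they made up 38.8% in dense controls, 65.8% in sparse controls and 71.9% in the 7 mutants. With values of exactly 0 and 100 left out, the mean over member windows was 40.4% in controls and 40.5% in the 7 mutants. The -11.1 points thus lay in the values at 0% or 100%. Leaving these out removes the extra windows at 0% by its construction, and such values also go with sparse coverage. The share of member windows at 25% or more was 58.8% ± 7.12 (SD, n = 10; range 48.4% to 71.4%) in controls and 35.5% ± 12.6 (SD, n = 7; range 19.4% to 49.5%) in the mutants. Over eligible windows these shares were 22% and 18.5%.

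Member windows were somewhat less well covered than other windows, and levels in the embryos that chose them were coarse. The 6 dense controls gave a value in 84.8% of their member windows and in 90.3% of their eligible windows. Of the values that chose the members, 45.6% were exactly 25% or 50%, close to the 45.0% among all eligible values of 25% or more in the same embryos. Of the 406 windows, 123 (30.3%) had no value in any of the 7 other mutant embryos. A further check of depth was not possible without read counts.

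Most member windows were also methylated in the densely covered controls, at intermediate levels. Over the 310 member windows with a value in at least 5 of these 6 embryos, the median level was 30.9% (quartiles 18.9% and 42.0%). Over the 24989 eligible windows with as many values it was 8.14%. Among the 192 member windows with a value in all 6, 33 (17.2%) were at 25% or more in every one and 12 (6.25%) in none, where the shares over all eligible windows were 2.13% and 51.4%. A value of 0% in at least 1 of the 6 was seen in 97 of the 192 windows (50.5%), against 85.3% of eligible windows. In none of the 192 were all 6 under 5%, against 9.84% of eligible windows.

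**Figure D2:**
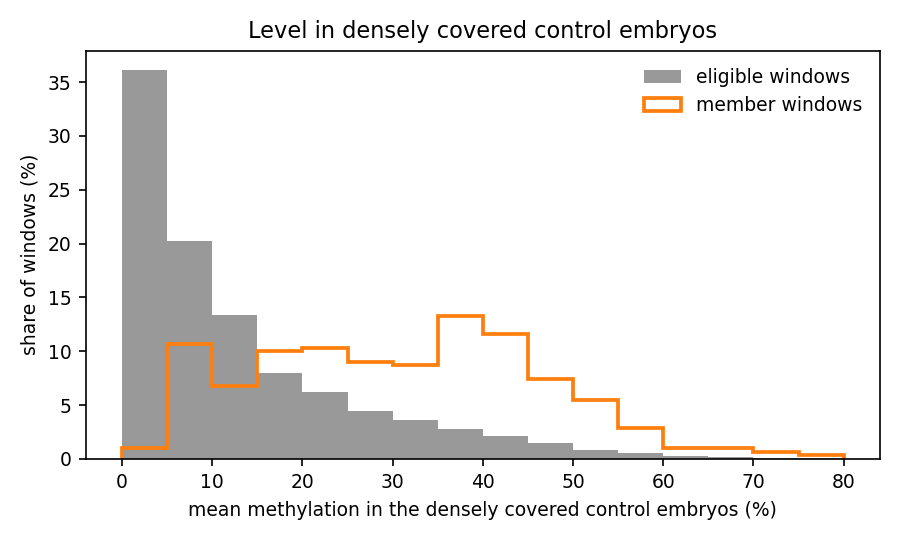
Share of windows in percent (vertical axis) by their mean level over the densely covered control embryos in steps of 5 points (horizontal axis), for member windows (outline) and all eligible windows (grey), with a value in at least 5 of the 6 embryos. Member windows spread around a median of 30.9%, eligible windows lie mostly near 0 with a median of 8.14%.

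Member windows were then grouped by their mean in the dense controls (at least 3 values) and read in the 4 sparse controls and the 7 other mutants, which served neither choice. Embryos with under 5 values in a class were left out of that class. Windows under 10% in the dense controls (47 windows) stood at 16.3% ± 2.69 (SD, n = 3) in sparse controls, and mutant embryos at 16% ± 7.49 (SD, n = 5). In the class from 10% to 25% (105) sparse controls had 32.7% ± 12.6 (SD, n = 4) and mutants 18.2% ± 9.10 (SD, n = 6). Between 25% and 50% (199 windows) the values were 43.2% ± 6.78 (SD, n = 4) in sparse controls and 26.3% ± 13.4 (SD, n = 7) in mutants. The 43 windows from 50% up had 54.1% ± 17.7 (SD, n = 4) in sparse controls, where mutants had 18.4% ± 12.4 (SD, n = 5), from 53 and 51 values in all. Sparse controls thus followed the dense controls from class to class. In the mutants the 4 class means stayed between 16% and 26.3%, and in the top class the groups did not overlap (35.4% to 77.0% in sparse controls, 2.5% to 34.8% in mutants), a difference given without a test because the windows were chosen. It depends on the minimum of 5 values: mutant replicate 18, with 3 values in that class, averaged 64.3%, inside the range of the sparse controls.

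**Figure D3:**
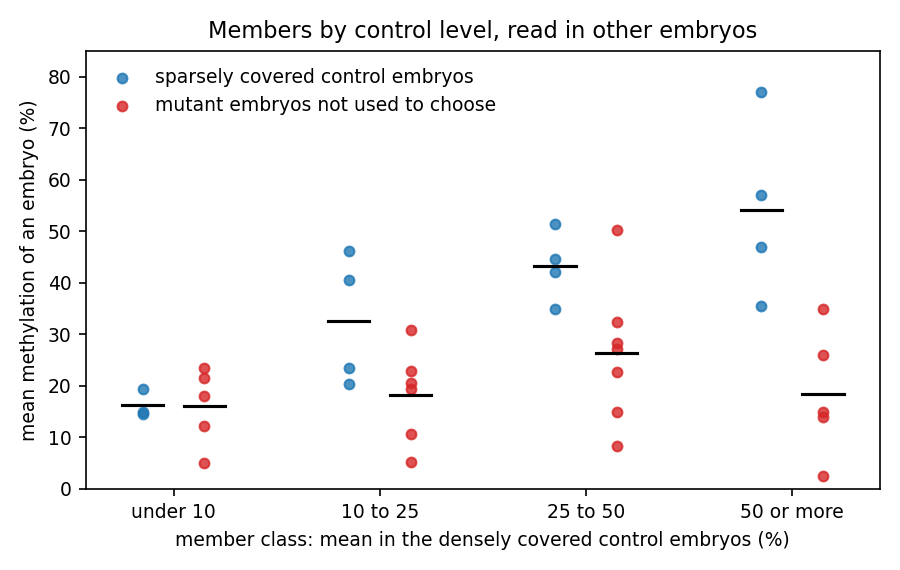
Mean methylation in percent of each sparsely covered control embryo (blue) and each mutant embryo not used to choose (red) over member windows, by class of the windows' mean level in densely covered controls (horizontal axis). Points are embryos with at least 5 values in the class and black bars their mean. The control means rise from 16.3% to 54.1% and the mutant means are 16%, 18.2%, 26.3% and 18.4%.

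The same rule applied to controls gives a list to set beside the member windows. In the 3 control embryos with the most windows (replicates 2, 3 and 4), 2558 of 36391 windows (7.03%) stood at 25% or more in all 3. The lists shared 104 windows, 25.6% of the members and 4.07% of the control list. Not every window could be shared. Of the 319 members with a value in those 3 controls, 32.6% were on the control list. Of the 1584 control-list windows with a value in the 3 choosing mutants, 6.57% were members. Read in the 7 controls that did not choose it, the control list stood at 41.3% ± 6.92 (SD, n = 7), and in the 7 sparse mutant embryos at 25.7% ± 3.8 (SD, n = 7). The latter is close to the 23.2% of the member windows in the same 7 embryos. In the mutant embryos that chose the members, the control list stood at 21.5%, 13.2% and 28.7% (replicates 11, 12 and 14), a range that holds the mean of the other mutants. Windows picked for a high level in 3 mutant embryos therefore averaged no higher in the remaining mutants than windows picked in 3 controls. Within the same embryo, the member windows were lower than the control list in replicates 15, 16, 17, 19 and 20. They were higher in replicates 13 and 18. The difference between the lists was not tested.

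Single windows were compared with limma across all autosomal windows with at least 3 values in the 10 controls and at least 3 in the 7 mutant embryos the rule did not use. Of 7250 windows tested, 3 passed an adjusted p of 0.05 (0.0414%), 2 lower (0.0276%) and 1 higher (0.0138%) in mutants. Of the member windows 62 could be tested (15.3%), and 0 passed. The 3 windows that passed, none a member, start on chromosome 11 at 64927868 (51.7% in controls, 0% in mutants), on chromosome 17 at 34255411 (47.4% and 0%) and on chromosome 1 at 36510033 (6.34% and 72.2%). At an unadjusted p under 0.05 there were 9 member windows (14.5%), 6 lower and 3 higher, against 6.12% of all windows tested (3.6% lower, 2.52% higher). The mutant mean was lower in 44 of the 62 member windows (71.0%) and in 59.4% of all. The median difference was -11.4 points over the member windows and -1.48 points over all. Overlapping windows were counted singly in these figures. The 44 include 6 overlapping windows of 1 site on chromosome 1 (24650992 to 24657646), so they are not 44 separate sites. Members were not compared with other windows of like control level. With only the 4 sparsely covered controls, 16 member windows could be tested, the 6 overlapping ones among them. At an unadjusted limma p under 0.05 there were 0 of these 16, against 49 of the 1143 windows tested. The mutant mean was lower in 15 of the 16 and in 565 of the 1143. The fit called few simulated losses: with the same values shuffled over embryos, 2 of 100 windows lowered by 40 points and 50 of 100 raised by 40 points were called. In that run 3 windows that had not been shifted were called as well. Before any shift, 1 of the 7250 shuffled windows was called, against 3 in the data. Lowered windows had means of 40% or more and raised ones means under 40%, and shifted values were stopped at 0% and 100%. The rates for losses and gains are therefore not comparable. Member windows averaged 34.3% in controls, so the rate for lowered windows need not hold for them.

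The member window with the smallest adjusted p was higher in mutants. On chromosome 5 from 130412972 to 130416471, the 6 densely covered controls read 0%, 10.3%, 9.52%, 15.4%, 20% and 0% (replicates 1 to 5 and 10). The 3 mutant embryos not used by the rule read 50%, 40% and 50% (replicates 16, 19 and 20), above these 6 values. All 3 are sparsely covered, and no sparsely covered control had a value here. Genotype and coverage therefore cannot be told apart at this window. With means of 9.21% and 46.7%, the mutants were 37.5 points higher (SE 5.19), which failed the correction (limma adjusted p = 0.0993). With at least 2 values in each group, which tests 17397 windows, its limma adjusted p was 0.0316. Over the 19 alternatives in which it could be tested, that p ran from 0.0316 to 0.61. The embryos that chose it read 50%, 42.9% and 28.6%, from which nothing is read.

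The next window was lower in mutants, on chromosome 1 from 171554483 to 171557982. The 7 control values ran from 50% through a median of 75% to 100%. The embryos that chose the window read 33.3%, 26.9% and 41.7%, below the 7 control values, from which nothing is read. The 4 others read 0%, 0%, 0% and 50% (replicates 13, 16, 17 and 19). Over the latter 4 the difference was -62.6 points (75.1% against 12.5%, SE 12.9, limma adjusted p = 0.17). Of 23 alternatives, the window passed in 1, with mutant replicate 19 left out (limma adjusted p = 0.0378, range over the alternatives 0.0378 to 0.61). Both windows were singled out after their values were seen. The chromosome 1 window overlaps another member window, from 171552707 to 171556206. There control replicates 5 and 10 read 25% and 0%, below the choosing embryos (37.5%, 37.5% and 27.3%). The other controls there read 56.2% to 100%. Control replicate 10 had no value at the window from 171554483.

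The 12 member windows with the most values in the 17 embryos, chosen by coverage and not by level, were tested one by one with exact permutation tests, two-sided. The mutant mean was lower in 10 of the 12 and higher in 2, with a median difference of -17.4 points. None passed: the smallest exact p was 0.0547 and the adjusted exact permutation p ran from 0.267 to 0.813 over the 12. Their means in controls were 23.0% to 55.7%, and in mutants 0% to 75%.

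On chromosome 10 from 127189781 to 127193280, the 8 control values ran from 0% through a median of 25.4% to 56.2%. The 4 mutant embryos read 0%, 13.3%, 0% and 0% (replicates 13, 15, 16 and 19), all below the control mean of 24.6% but inside the control range. Sparsely covered control replicates 6 and 7 read 0% and 20% there. The difference from all controls was -21.3 points (exact permutation p = 0.0667, adjusted 0.267). On chromosome 5 from 131637933 to 131641432, all 3 mutant values were 0% (replicates 15, 16 and 19), where the 10 controls ran from 0% through 39.3% to 80%. Sparsely covered control replicates 6 to 9 read 0%, 80%, 50% and 50% at this window. The difference from all controls was -38.6 points (exact permutation p = 0.0594, adjusted 0.267).

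The window on chromosome 15 from 78773040 to 78776539 went the other way. Its 6 mutant values were 100%, 50%, 50%, 50%, 100% and 100% (replicates 13, 15, 16, 18, 19 and 20), a mean of 75% ± 27.4 (SD, n = 6). The 7 controls ran from 30.4% through 41.7% to 100%, with a mean of 50.6% ± 24.2 (SD, n = 7). The groups overlapped (24.4 points, exact permutation p = 0.111, adjusted 0.281). All 6 mutant embryos with a value that the rule did not use were at 50% or more. All 6 are sparsely covered, and sparsely covered control replicates 6 and 7 also read 50% and 100%. The dense controls with a value read 30.4% to 60.9%. Genotype and coverage were not separated at this window. On chromosome 3 from 97597379 to 97600878, 5 mutant embryos read 33.3%, 50%, 100%, 50% and 0% (replicates 13, 15, 18, 19 and 20) and 8 controls 16.7% to 100% with a median of 35.9%. Of these controls, the sparsely covered replicates 6 and 8 read 16.7% and 100%. The means there were 46.7% and 41.9% (exact permutation p = 0.813, adjusted 0.813).

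The best covered members overlap each other on chromosome 1. A run of 6 member windows spans 24650992 to 24657646, each overlapping the next, so that they count as 1 site. Each of the 6 had a value in 16 of the 17 embryos, a coverage that 16 of the 28744 eligible windows (0.0557%, these 6 included) reached, and mutant replicate 17 was the embryo with none. Averaged over the run, control embryos read 37.1% ± 7.46 (SD, n = 10), from 24.2% (replicate 6) to 52.6% (replicate 1). The choosing embryos read 47.5%, 52.7% and 50.5%. The other 6 mutants read 45.1%, 60.5%, 7.58%, 25.9%, 3.76% and 16.7% (replicates 13, 15, 16, 18, 19 and 20). Of these, replicate 15 was above all controls and replicate 13 above all but 1, replicates 16, 19 and 20 were below all controls, and replicate 18 was near the lowest control.

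At the first window of the run, from 24650992 to 24654491, controls ran from 32.1% through 41.0% to 54.6% and the 6 mutants from 0% through 27.9% to 59.4%. The difference was -14.4 points (exact permutation p = 0.0547, adjusted 0.267), and 4 of the 6 mutants lay below the lowest control. The mutant SD was 20.4 points and the control SD 6.54 points. The difference between these SDs was not tested. Whether reads from near-identical sequence elsewhere in the genome were counted at this run was not tested, so its levels are uncertain.

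Runs of at least 3 member windows lay at 2 further places, each with few values. On chromosome 2, 3 windows between 10480609 and 10484625 averaged 50.0%, 33.3% and 31.2% in the choosing embryos, and 0%, 50.0%, 100%, 15.3% and 25% in dense control replicates 2, 3, 4, 5 and 10. No other mutant embryo had a value. On chromosome 8, 4 windows between 84932147 and 84936048 averaged 50%, 25% and 50% in the choosing embryos. The dense controls there read 53.3%, 21.6%, 0%, 33.3%, 11.8% and 7.14% (replicates 1 to 5 and 10), and mutant replicates 15 and 20 read 33.3% and 0%. At both places the values differed widely between embryos of the same group.

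Among the 310 member windows with at least 5 dense control values, the 5 highest averaged 66.7% to 75.3% there. The highest, on chromosome 5 from 119665520 to 119669019, read 100%, 90.9%, 50%, 95%, 90.9% and 25% in dense control replicates 1 to 5 and 10, and 37.5%, 42.9% and 33.3% in the choosing embryos. The one other mutant embryo with a value, replicate 19, read 0%. On chromosome 16 from 3336636 to 3340135 the dense controls read 50%, 67.6%, 100%, 71.4%, 83.3% and 66.7%. The choosing embryos read 50%, 66.7% and 25%, so they overlapped the controls, and mutant replicate 15 read 0%. On chromosome 12 from 109555149 to 109558648, 5 dense controls averaged 69.6% ± 22.3 (SD, n = 5). The choosing embryos read 50%, 33.3% and 55.6% there, mutant replicates 15 and 20 read 83.3% and 0%, and sparse control replicates 6 and 9 both read 0%. All 7 controls with a value averaged 49.7% at this window. It overlaps another member window, from 109553881 to 109557380, where 7 controls averaged 24.8% and 3 of the other mutants 23.3%. The level at this site thus depended on the window. The windows on chromosome 9 from 122102595 (72.8% over 5 dense controls) and on chromosome 1 from 33655414 (66.7% over 6) complete the 5 highest.

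At the other end of the same 310 windows were 5 that dense controls left almost unmethylated. On chromosome 13 from 69490774 to 69494273, all 5 dense controls with a value read 0%. The choosing embryos read 25%, 25% and 50% there, and mutant replicates 13 and 15 read 0% and 50%. On chromosome 19 from 6916229 to 6919728, dense controls read 6.06%, 7.69%, 3.12%, 2.78%, 9.09% and 1.85%, and sparse control replicates 6 and 9 read 33.3% and 0%. The choosing embryos read 33.3%, 33.3% and 41.2% at this window, and mutant replicates 13, 19 and 20 read 33.3%, 0% and 100%. The windows on chromosome 15 from 83404605, chromosome 5 from 150522506 and chromosome 10 from 68527704 had dense control means of 2.22%, 4.00% and 5.00%.

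Among the 192 member windows with all 6 dense control values, the 3 choosing embryos lay above all 6 controls in 24 windows and below all 6 in 2. Over the 17526 eligible windows with such values, 1.19% had the embryos above and 1.62% below. The rule used these embryos and asked for high values, so nothing is read from that count. The 24 windows were read further in the embryos outside both sets. The 38 values of the 7 other mutant embryos averaged 26.7%, with 17 at 25% or more and 19 at 0%. The 28 values of the 4 sparse controls averaged 14.3%, with 8 at 25% or more. Mutant embryos had 3 to 9 values each and means from 12.5% (replicate 16) to 41.7% (replicate 18), and sparse controls 4 to 12 values each and means from 8.33% to 26.4%, so the embryos overlapped. In this set, picked after its values were seen and not tested, the order of the groups was opposite to that over all 406 windows. There, pooled values averaged 23.6% in the 7 mutants and 37.6% in the sparse controls. The set was picked with dense controls below the choosing mutants, so the choice itself favours the opposite order. Its values are also pooled over windows and embryos, so nothing is read from that order.

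The 2 windows with the choosing embryos below all dense controls were on chromosome 8 from 12994941 and on chromosome 16 from 32928472. At the first, controls ran from 34.6% to 100% and the choosing embryos read 27.6%, 34.2% and 30.6%. The other mutants read 100%, 16.7% and 0% there (replicates 13, 15 and 19). At the second, the dense controls ran from 36.4% to 78.6% and the choosing embryos read 31.6%, 25% and 25%, with 20% and 0% in mutant replicates 13 and 20. In both, a level of 25% or more in the choosing embryos was still below the control level.

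The member windows were scattered over all 19 autosomes. Chromosome 1 held the most, 36, and chromosome 18 the fewest, 7. As a share of eligible windows, members ranged from 0.914% on chromosome 3 to 2.30% on chromosome 16 (21 of 912, exact Clopper-Pearson 95% interval 1.43% to 3.50%, covering counting error only). Chromosome 16 is the highest of 19, so its distance from the overall 1.41% was not tested. Of 500 stretches of 5 Mb with an eligible window, 246 held at least 1 member and 18 held 4 or more. The stretch with the most, on chromosome 1 from 20000001 to 25000000, held 8, of which 6 are the overlapping run described above. Next by count were stretches with 5 members each on chromosomes 16 (30000001 to 35000000), 17 (30000001 to 35000000) and 19 (10000001 to 15000000). They held 95, 200 and 94 eligible windows, so the shares were 5.26%, 2.5% and 5.32%.

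**Figure D4:**
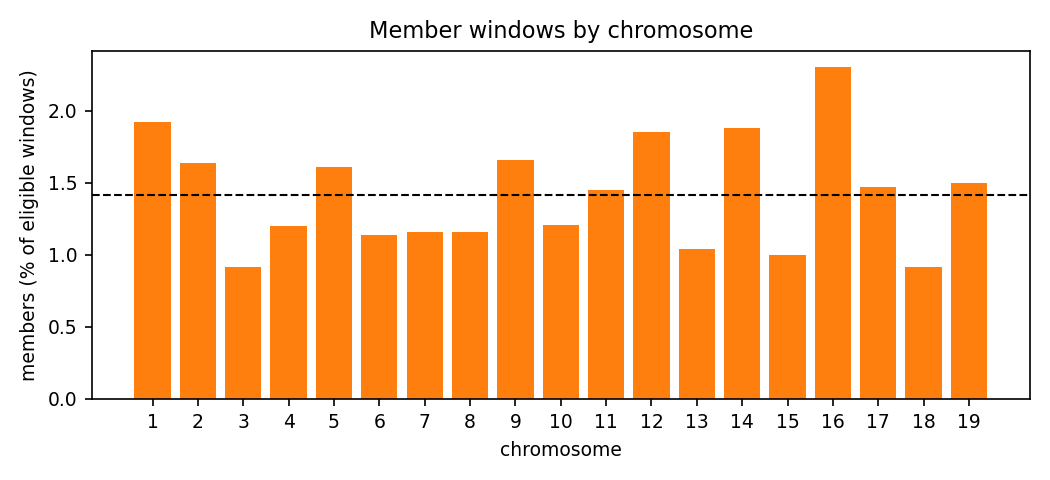
Member windows as a percent of the eligible windows of each autosome (bars), with the share over all autosomes as a dashed line at 1.41%. The bars run from 0.914% on chromosome 3 to 2.30% on chromosome 16.

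The 406 windows formed 387 runs of overlapping windows, of which 375 held 1 window, 9 held 2 and 3 held more. Members in runs of at least 2 made up 7.64% of all, where 32.0% of eligible windows lay in runs of at least 2 eligible windows. A sparser list holds fewer overlapping pairs, so these shares are not comparable. Between one run and the next on the same chromosome lay a median of 3410297.5 bp, and 15 of the 368 gaps were under 100000 bp. Where an eligible window overlapped a member without being one (44 windows), it averaged 16% in the choosing embryos, 21.7% in dense controls and 9.63% in the other mutants. Eligible windows within 100000 bp of a member that did not overlap one (1825 windows) averaged 10.7%, 13% and 11.9%. Those farther away (26469 windows) averaged 10.7%, 12.8% and 12.4%. Windows that overlap a member share its CpG sites and so part of the choice. Promoters nearby without overlap had about the level of distant ones.

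Windows just outside the threshold had much the same levels elsewhere as those just inside it. Of the 188 members with a lowest value of exactly 25%, the 3 with the smallest sum of choosing values were on chromosome 10 from 111838037 (25%, 25% and 25%), on chromosome 14 from 30212913 (25%, 25% and 25%) and on chromosome 11 from 116640160 (25%, 25% and 27.3%). The 3 eligible windows nearest outside had lowest values of 24.5% (chromosome 8 from 123193945), 24.4% (chromosome 16 from 84873999) and 24.0% (chromosome 8 from 115321141). The last of these read 50% to 75% in the dense controls. The 230 windows with a lowest value of 20% to under 25% averaged 28.6% in dense controls and 23.0% over 363 values of the other mutants. The 248 members with a lowest value under 30% averaged 30.2% and 22.6% over 313 values. No step in the levels of other embryos was seen at the threshold.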

How the data were processed

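Single mouse blastocysts were profiled by bisulfite sequencing after polyadenylated RNA had been removed, per the labels' protocols. The submitters' processing notes name Trim Galore 0.4.4, Bismark 0.18.2 and build GRCm39. The authors deposited 1 table whose score per window and embryo is a methylation level in percent; how calls were combined within a window is not given in the sources used here. Depth is therefore unknown, and levels fall on coarse steps. Of 54080 rows, 46 repeated another and were dropped. Of the 491705 values left, 1594 were whole numbers above 100 and were divided by 1000, since their decimal point appears to be missing.

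The members, lists and tests were chosen with earlier results of these data known. Group means were taken per embryo over the windows it had. Single windows were fitted with limma 3.58.1 (R 4.3.3, lmFit and eBayes at default settings) on the untransformed percent, with Benjamini-Hochberg adjustment over all windows tested. An embryo with no value at a window drops out of its fit. The fit was tested on simulated data. Permutation tests were exact, with adjustment over 12 windows. Windows named in the text are the 12 members best covered in the 17 embryos (1 per overlapping run), the 5 highest and 5 lowest in dense controls among members with at least 5 values there, members past the threshold, 3 windows on each side of the threshold (ties broken by the smallest sum of the 3 choosing values) and runs of at least 3 members. Any other window was picked with its values in view. The labels do not say which embryos share a mother or were processed together, so a p-value covers only the spread among the sampled embryos. The gene tables at hand were on build GRCm38.p6, so gene lists, gene names and sequences of the windows were not used here.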

Additional observations from a re-analysis of the deposited data

Results flagged for a closer look

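Of 28 groups of 4 to 10 embryos checked for a single embryo far from the rest, 3 held one, where chance gives about 1 in 20. On chromosome 3 from 97597379, control replicate 8 read 100%, and the next of the 8 controls 50%. On chromosome 7 from 140757878, mutant replicate 19 read 31.6%, where the other 4 mutant embryos with a value read 0%. On chromosome 10 from 127189781, mutant replicate 15 read 13.3%, where the other 3 read 0%. Where all other values are exactly 0%, as in these last 2 groups, any other value is marked, so the chance rate does not hold for them.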

How the results depend on the processing

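The list itself depends on its threshold: 636 windows met 20% in all 3 embryos and 128 met 33%. The difference in mean level over the member windows between the 7 mutant embryos and the controls, -11.1 points, was -22.0 points with medians and 0.107 points with values of exactly 0 and 100 left out, an alternative that removes the extra windows at 0% by its construction. Leaving out single embryos gave -13.96 to -9.08 points. With only mutant embryos that read at least 50 members, an alternative added after seeing the data, as was the control list, it was -12.8 points. The count of windows past the limma threshold, 3, was 57 with at least 2 values in each group (52 of them higher in mutants, 1 a member) and 0 with trend and robust fitting (341 at an unadjusted p under 0.05, 6 of them members). Without single embryos it was 1 to 9: 1 without mutant replicate 15 or 17, 5 without 18 and 9 without 19; the cause was not tested. The number of members past it was 0 in the other refits except 1 without mutant replicate 19. No paired analysis was possible because controls carry the numbers 1 to 10 and mutants 11 to 20. Few values per window limit what single windows can show.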
